A study of Mus musculus with 2 samples.

Results

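Leydig cells are the steroid-producing cells of the testis interstitium. Luteinizing hormone acts on their receptor LHCGR and raises cyclic AMP, STAR carries cholesterol into the mitochondrion, CYP11A1 cuts its side chain with electrons passed on by FDXR and FDX1, and HSD3B and CYP17A1 enzymes turn the product into androgens. Fetal-type Leydig cells form before birth and lack much of the HSD17B3 that makes testosterone, a step that Sertoli cells then carry out, whereas adult-type cells form after birth from stromal progenitors. At PD7 the testis is in the period between the 2 waves.

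Leydig cells were selected from 2 single-cell RNA sequencing libraries on their own measured counts. A cell was a member when its UMIs (unique molecular identifiers, 1 for each captured RNA molecule) for *Cyp17a1*, *Cyp11a1*, *Hsd3b1*, *Star* and *Insl3* summed to at least 20 per 10000, while *Clu*, *Amhr2*, *Rhox8* and *Cst9*, which mark Sertoli cells, summed to less than 10 and the germ cell genes *Ddx4* and *Dazl* to less than 2. Among 13789 retained cells, 70 met the rule. Of these, 17 of 5077 retained cells were in the control library and 53 of 8712 in the *Brca1* vKO library. One library came from the testes of 1 control mouse and the other from those of 1 *Brca1* vKO mouse, both at day 7 after birth. In *Brca1* vKO mice, which carry 1 floxed and 1 deleted *Brca1* allele, *Vasa-Cre* deletes the floxed allele in germ cells from before birth. Their Leydig cells therefore keep the floxed allele unless the Cre acts outside the germ line, and the genotype of the control mouse is given only as control. With 1 library per genotype there was no test between genotypes, and genotype, mouse and library cannot be told apart. All intervals below are exact 95% intervals that cover counting error only.

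The 17 control members held 316027 UMIs and the 53 *Brca1* vKO members 1142026 UMIs. Median depth per member was 21845 UMIs in the control, from 1682 to 42312, and 18823 in the *Brca1* vKO, from 11962 to 46972. The libraries shared 21 cell barcodes, and no member had the barcode of a retained cell of the other library. More cells were loaded from *Brca1* vKO testes, and germ cells were fewer there: cells with a germ sum of at least 2 were 21.8% of retained control cells and 3.25% of *Brca1* vKO cells, which changes the denominator of every share.

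The limit of 20 ran through a continuous range. Among cells within the Sertoli and germ limits, 7 control and 21 *Brca1* vKO cells had sums from 10 to 20, and 3 and 7 had sums from 20 to 30. In the control, the lowest steroidogenic sums inside the rule were 20.1 and 21.9 per 10000 UMIs and the highest outside were 19.1 and 18.2. In the *Brca1* vKO library they were 20.9 and 22.4 inside, and 19.2 and 18.1 outside. A further 22 control and 26 *Brca1* vKO cells reached the steroidogenic sum but stood outside the rule, 21 and 26 of them through the Sertoli sum. In 19 of these 21 and 24 of these 26 cells, *Amhr2*, *Rhox8* and *Cst9* alone summed to less than 10, so that *Clu*, which encodes the secreted chaperone clusterin, took them past the limit. Their median *Clu* was 11.8 and 15.6 UMIs per 10000 in the control and *Brca1* vKO libraries, against 3.0 and 2.17 in the members and 23.2 and 25 in Sertoli-gated cells. Neither *Sox9* nor *Amh*, which define Sertoli cells, had a UMI in 17 of the 21 control and 17 of the 26 *Brca1* vKO cells that the Sertoli sum left out. The doublet caller Scrublet marked 2 of these outside cells in each library and 0 of the 70 members. Values in these 48 cells are given beside those of the members where they bear on a result.

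**Figure D1:**
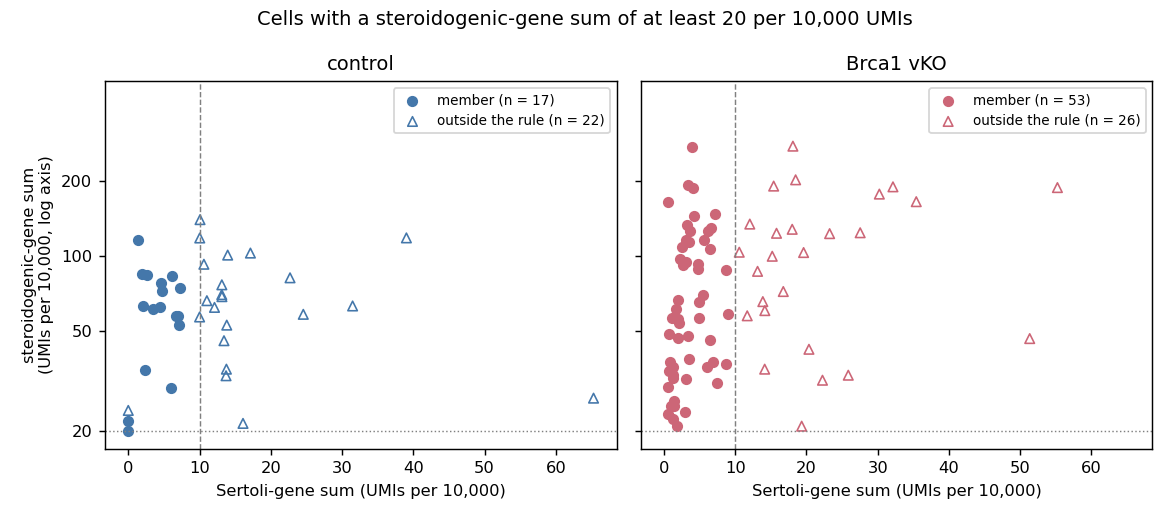
Each point is 1 of the 118 cells with a steroidogenic sum of at least 20 per 10000 UMIs, with the Sertoli sum on the x axis and the steroidogenic sum on a logarithmic y axis, for each library; dashed and dotted lines are the limits of 10 and 20. Members (filled) reach Sertoli sums of 7.27 in the control and 8.96 in *Brca1* vKO cells, and the cells outside (open) begin at 10.0 and 10.6, apart from 1 control cell that the germ sum left out.

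All 6 Leydig markers were at least 4-fold higher in the members than in all other retained cells of the same library, in both libraries, among 19200 genes with at least 50 UMIs, of which 93 (0.484%) passed that fold. The rule used 5 of the 6, so these values describe the selection. Levels are given as counts per 1000000 UMIs (CPM) of the summed members. *Cyp17a1* (chr19:46667165-46673172, minus strand, mm10), which makes androgen precursors, was at 1845 CPM (1698 to 2001) in control members and 10.4 CPM in the other control cells, and at 3960 CPM (3845 to 4077) against 18.8 in the *Brca1* vKO library. *Lhcgr* (chr17:88716481-88791990, minus strand), which the rule did not use, was at 528 CPM (451 to 615) against 5.44 in the control and 394 CPM (359 to 432) against 6.98 in *Brca1* vKO cells. Of the 8 Sertoli markers, 7 were at least 4-fold lower in members in both libraries, where 1.08% of all tested genes were, but the rule had kept *Clu*, *Amhr2*, *Rhox8* and *Cst9* low, and these 4 say nothing of the label. The stromal markers summed to 1282 and 1776 CPM in control and *Brca1* vKO members, against 11580 and 10961 CPM in stromal-gated cells. Most of the *Cyp17a1*, *Cyp11a1* and *Hsd3b1* UMIs of the other cells, 79.5% to 91.0%, lay in the 48 steroid-high cells outside the rule.

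Outside the rule's own genes, *Ren1* led. *Ren1* (chr1:133350510-133360325, plus strand, mm10), which encodes renin, was at 2671 CPM (2494 to 2857) in control members and 2837 CPM (2740 to 2937) in *Brca1* vKO members, with 13.1 and 6.38 CPM in other cells. Each gene has 1 log2 ratio over other cells in each library (of CPM, with 10 CPM added to both), and the lower of the 2, called its enrichment here, was 6.86 for *Ren1*. Some mouse strains carry *Ren2*, a near-identical copy whose reads would count here as *Ren1*. Among the 20 genes with the greatest enrichment, *Ren1*, *Cyp17a1*, *Insl3* (relaxin-like hormone), *Cyp11a1*, *Hsd3b1* and *Lhcgr* came first, from 6.86 down to 4.57.

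Several enzyme genes were among the 20. *Aldh3a1*, an aldehyde dehydrogenase, was at 301 CPM in control and 214 CPM in *Brca1* vKO members and at 1.15 and 2.15 CPM in other cells. It was at 13.1 and 13.2 CPM in the steroid-high cells outside the rule, far under the members, whereas *Cyp17a1* in those cells was at 1599 and 3335 CPM. *Alas1*, the rate-limiting enzyme of heme synthesis, on which the P450 enzymes depend, was at 1006 and 1804 CPM. *Ephx1*, an epoxide hydrolase, was at 291 and 211 CPM.

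*Sct*, which encodes the hormone secretin, was at 873 and 817 CPM against 52.3 and 66.0 CPM in other cells. Stromal-gated cells also held it, at 267 CPM in the control and 277 CPM in the *Brca1* vKO library. *Kit*, the stem cell factor receptor, was at 342 and 240 CPM against 21.0 and 6.95 CPM. *Bmp2*, a bone morphogenetic protein, was at 237 and 157 CPM, and *Vcam1*, a cell adhesion molecule, at 1066 and 592 CPM. *Oca2*, a melanosome transporter gene, was at 253 and 319 CPM against 4.93 and 2.77 CPM. *Star*, *Serpina3g*, *Fam129a*, *Iqgap2* and *Cd24a* were also among the 20, with enrichments from 3.86 to 3.30.

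**Figure D2:**
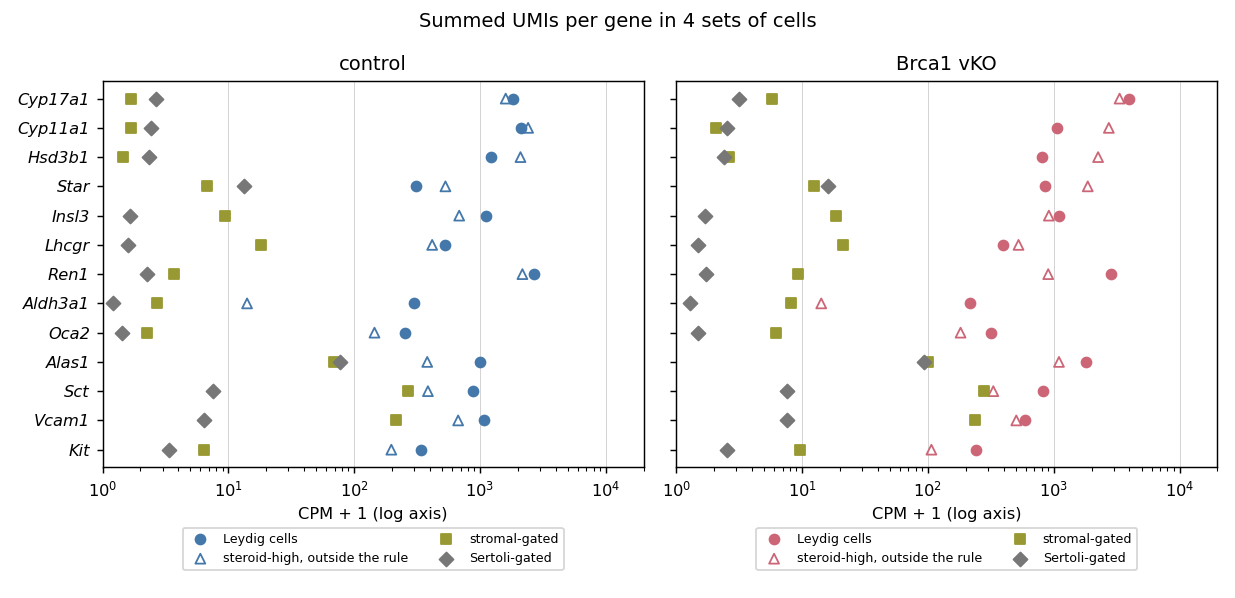
Summed level of 13 genes in CPM + 1 on a logarithmic axis, for the Leydig cells (circles), the steroid-high cells outside the rule (triangles), stromal-gated cells (squares) and Sertoli-gated cells (diamonds) of each library. The 6 marker genes are at 307 CPM or more in the Leydig cells of both libraries, and *Aldh3a1* separates the members, at 301 and 214 CPM, from the steroid-high cells outside the rule, at 13.1 and 13.2 CPM.

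The wider steroid synthesis list was uneven. Of its 24 genes, 19 were tested, 6 were higher in members than in other cells and 2 were lower (0.484% and 1.08% over all genes), with a median enrichment of 0.60 against -0.22 over all genes tested. Of the 6 higher genes, *Cyp17a1*, *Cyp11a1*, *Hsd3b1* and *Star* were genes of the rule, so that 2 were free of it. *Fdx1*, the electron donor of CYP11A1, was higher at 835 and 2106 CPM against 93.6 and 96.9 CPM, and so was *Srd5a1*, a steroid 5-alpha-reductase, at 104 and 54.3 CPM against 5.97 and 3.76 CPM. The 2 lower genes were *Hsd17b3* and *Hsd17b1*, both of which reduce 17-ketosteroids. *Hsd17b3* had 0 UMIs in control and 10 in *Brca1* vKO members, or 8.76 CPM (4.20 to 16.1), while Sertoli-gated cells held 345 and 346 CPM. *Hsd17b1* had 0 and 13 UMIs in members.

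Cholesterol supply stood mostly above other cells without reaching 4-fold. Of 22 genes tested, 1 was higher and 0 were lower (0.484% and 1.08% over all genes), and the median enrichment was 0.96. The 1 gene was *Scarb1*, the receptor that takes up cholesterol from high-density lipoprotein, at 747 and 528 CPM against 72.0 and 102 CPM. In the control, 59.8% of its UMIs lay in 1 cell, without which the control level was 347 CPM, still past 4-fold over other cells. *Idi1* and *Fdps*, which act in the mevalonate pathway, had enrichments of 1.70 and 1.58.

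Hormone signalling and transcription factor genes were mostly close to other cells. Over all genes tested, 0.484% were higher and 1.08% lower, and the counts below are read against these shares. Of 20 genes for the luteinizing hormone receptor and cyclic AMP signalling, *Lhcgr* was higher and the phosphodiesterase gene *Pde4b* lower, and the median was -0.08. Of 22 transcription factor genes, *Esr1*, the estrogen receptor, was higher at 528 and 361 CPM against 43.0 and 51.2 CPM, and *Gata6*, *Wt1* and *Zfpm2* were lower, with a median of -0.08. *Nr5a1*, which encodes the steroidogenic factor SF-1, was at 174 and 109 CPM against 38.2 and 48.9 CPM, an enrichment of 1.02 that did not pass 4-fold. Among 15 tested receptor genes *Lhcgr*, *Kit* and *Prlr*, the prolactin receptor, were higher, and *Amhr2*, a gene of the rule, was lower. *Prlr* was at 320 and 403 CPM.

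*Insl3*, a gene of the rule, was higher and *Pdgfa*, *Inha* and *Inhbb* were lower among 16 secreted factors. *Adh1*, an alcohol dehydrogenase, and *Ephx1* were higher and the glutathione transferase genes *Gstm1* and *Gstm2* lower among 19 antioxidant and detoxification genes, where 0.484% of all genes were higher and 1.08% lower. None of the 14 genes of Leydig progenitors and the hedgehog response, the 12 imprinted growth genes and the 10 immediate early genes passed 4-fold in either direction, with medians of -0.12, 0.31 and 0.65. The 14 cell cycle genes had a median of -2.16, and *Ube2c* was lower. Of the 8 genes that fetal and adult types share, 7 were higher, and 5 of these were the rule's own genes, which leaves *Lhcgr* and *Scarb1*.

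Fetal-type genes outnumbered adult-type genes in UMIs, through 1 gene on each side. The fetal-type list of 7 genes held 847 UMIs in control members and 3260 in *Brca1* vKO members, and *Ren1* made up 99.7% and 99.4% of them. Of the others, *Thbs2* had 1 and 5 UMIs, *Mc2r*, the adrenocorticotropin receptor, 1 and 2, *Crhr1*, a corticotropin-releasing hormone receptor, 0 and 11, and *Cyp21a1*, the adrenal 21-hydroxylase, 1 and 2. *Cyp11b1* and *Cyp11b2*, which act in adrenal corticoid synthesis, had 0 UMIs in the members of both libraries. The limit for a count of 0, set at 3 counts per library, was 9.49 CPM in control members and 2.63 CPM in *Brca1* vKO members. Exact 95% upper limits are 11.7 and 3.23 CPM. In the steroid-high cells outside the rule, *Cyp11b1* was at 11.5 CPM in the control and 3.96 CPM in *Brca1* vKO cells. There *Cyp21a1* was at 8.18 and 3.96 CPM, and *Cyp11b2* at 0 in both. These levels rest on few UMIs: apart from *Ren1*, the whole fetal-type list held 17 UMIs in those control cells and 18 in those *Brca1* vKO cells. *Thbs2*, a thrombospondin gene, was at 74.2 CPM in stromal-gated cells of the *Brca1* vKO library and 4.38 CPM in the members.

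The adult-type list of 8 genes held 374 and 760 UMIs, of which *Vcam1* made up 90.1% and 89.0%. *Vcam1* (chr3:116109949-116129688, minus strand) was at 1066 CPM (956 to 1187) in control members and 592 CPM (548 to 638) in *Brca1* vKO members, and at 214 and 238 CPM in stromal-gated cells, which also use it. *Srd5a1* had 33 and 62 UMIs. *Akr1c14*, a 3-alpha-hydroxysteroid dehydrogenase gene, had 3 and 8. The genes that mark the androgen-making adult cell were near 0: *Hsd3b6* had 0 and 2 UMIs, *Hsd17b3* 0 and 10, *Ptgds*, a prostaglandin synthase, 0 and 2, *Hsd11b1*, whose enzyme regenerates active glucocorticoid, 1 and 0, and the estrogen sulfotransferase *Sult1e1* 0 in both. *Hsd3b6* is a close relative of *Hsd3b1*, and reads that match both genes would not be told apart.

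Fetal-type over adult-type UMIs came to 2.27 (2.0 to 2.57) in control members and 4.29 (3.96 to 4.65) in *Brca1* vKO members. These intervals did not overlap, but the order turned in the steroid-high cells outside the rule, at 2.62 (2.36 to 2.90) in the control and 1.42 (1.27 to 1.6) in *Brca1* vKO cells. With all 118 steroid-high cells the values were 2.47 and 3.16. Since *Ren1* and *Vcam1* hold nearly all UMIs of their lists, each ratio is close to that of these 2 genes. Between the libraries, *Brca1* vKO over control members, *Ren1* had a ratio of 1.06 (0.985 to 1.15) and *Vcam1* 0.555 (0.486 to 0.635). All these ratios are of summed UMIs. For *Ren1*, 4 *Brca1* vKO members lay above the highest control member, and the ratios without them were not tested. The median per member of the fetal-type list was lower in the *Brca1* vKO library, at 8.22 UMIs per 10000 against 17.9 in the control. For the adult-type list the medians were 5.43 and 7.56.

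**Figure D3:**
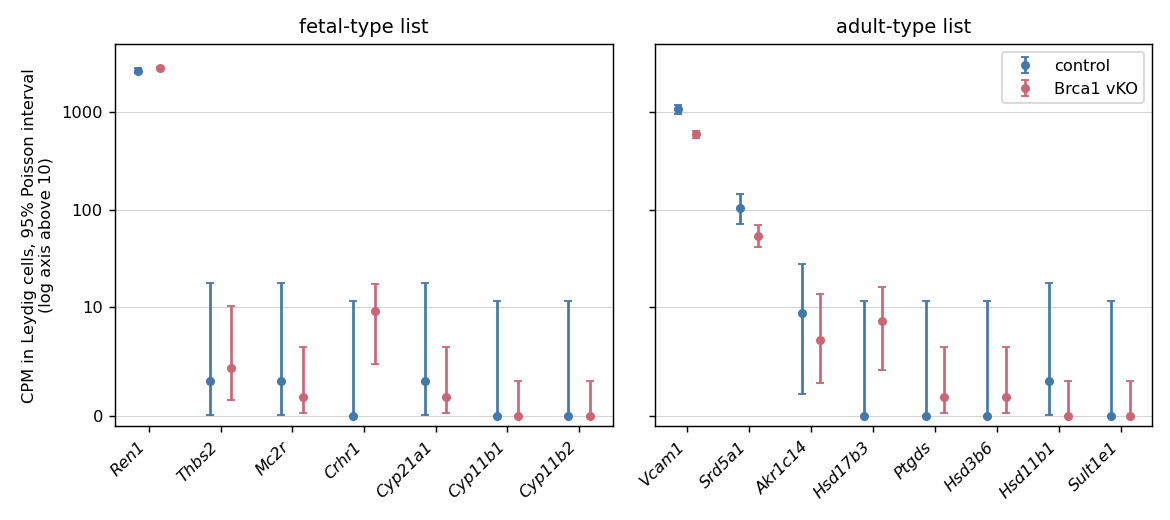
CPM of each gene of the fetal-type (left) and adult-type (right) list in the summed Leydig cells of the control and *Brca1* vKO libraries, with exact 95% Poisson intervals, on an axis that is linear below 10 and logarithmic above. *Ren1* and *Vcam1* stand far above the other genes of their lists, and *Srd5a1* is the only other gene above 10 CPM in both libraries.

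Members differed widely among themselves. *Ren1* ran from 0 to 94.1 UMIs per 10000 in control members, with a median of 17.9, and from 0 to 252 in *Brca1* vKO members, with a median of 8.22. A *Ren1* UMI was present in 13 of 17 control members (76.5%) and 45 of 53 *Brca1* vKO members (84.9%). Thinned to 5000 UMIs a cell, which left out 2 control members, the shares were 80.0% and 81.1%, and in Sertoli-gated cells, with median depths of 17612 and 15064 UMIs, they were 0.628% and 1.30% unthinned. *Vcam1* ran from 0 to 35.8 in the control, with a median of 5.91, and from 0.308 to 23.7 in the *Brca1* vKO library, with a median of 5.01. For *Ren1*, 4 *Brca1* vKO members lay above the highest control member, and for *Vcam1*, 2 control members lay above the highest *Brca1* vKO member.

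Levels of the steroidogenic genes also spread. The steroidogenic sum had a median of 62.7 per 10000 UMIs in control members, from 20.1 to 116, and of 56.6 in *Brca1* vKO members, from 20.9 to 273. One control member held 27.1% of all control *Cyp17a1* UMIs. Over cells of 1 library, which share ambient RNA and differ in depth, Spearman's rho of *Ren1* with *Cyp17a1* was 0.41 in the 17 control members and 0.41 in the 53 *Brca1* vKO members, and with *Insl3* 0.41 and 0.48. *Ren1* and *Vcam1* had a rho of -0.25 and -0.06, and 12 of 17 control members and 45 of 53 *Brca1* vKO members held UMIs of both. The steroidogenic sum and the UMIs of the stromal genes *Dcn*, *Col1a1* and *Col1a2* had a rho of -0.35 and -0.38. Since the cells were selected on the steroidogenic sum, which holds *Cyp17a1* and *Insl3*, the values with these genes or the sum only describe the selected cells.

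**Figure D4:**
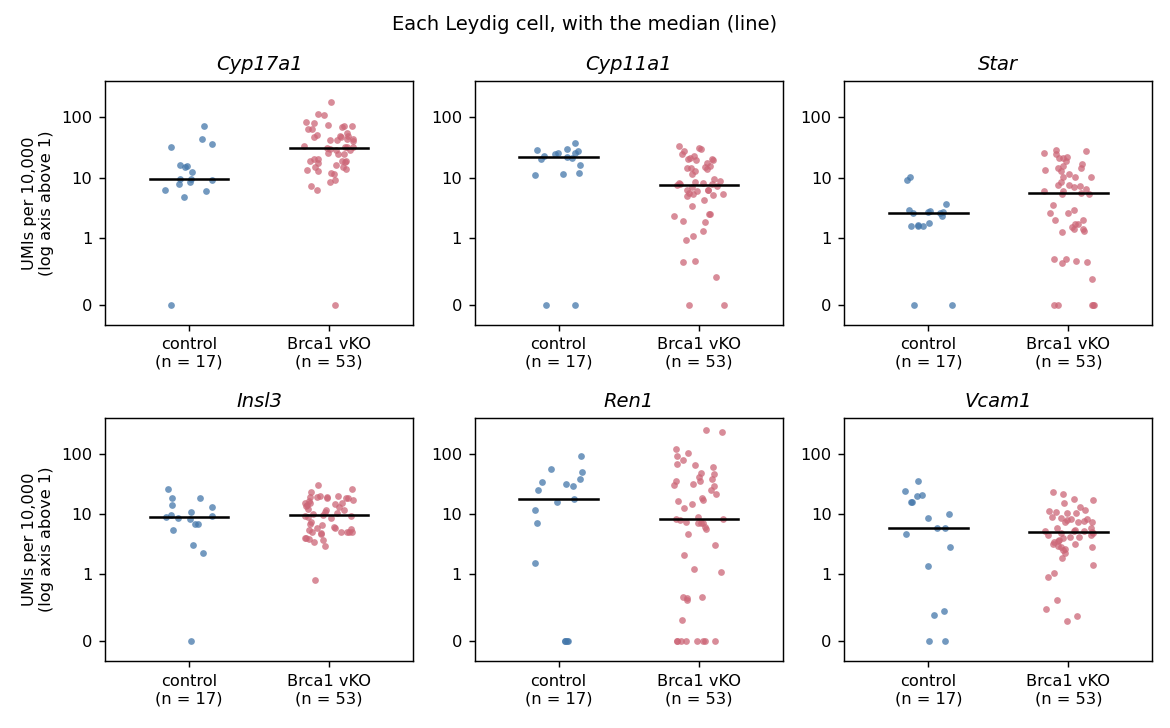
UMIs per 10000 for 6 genes in each of the 17 control and 53 *Brca1* vKO Leydig cells, on an axis that is linear below 1 and logarithmic above; lines are medians. *Ren1* has a median of 17.9 in the control and 8.22 in *Brca1* vKO cells and includes 4 and 8 cells at 0, while *Cyp17a1* and *Cyp11a1* lie in opposite order between the libraries, with overlap.

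Leydig cells made up 0.335% (0.195 to 0.536) of retained control cells and 0.608% (0.456 to 0.795) of retained *Brca1* vKO cells, a ratio of 1.82 (1.04 to 3.35). The ratio rests on the Sertoli limit: with the 48 cells outside the rule included, 39 control and 79 *Brca1* vKO cells gave a ratio of 1.18 (0.795 to 1.78), and without *Clu* in the Sertoli sum, 35 and 77 cells gave 1.28 (0.849 to 1.97). Stromal-gated cells had a ratio of 1.35 (1.24 to 1.47) and Sertoli-gated cells 1.14 (1.09 to 1.20). The share of germ cells moved with these ratios, and its part in them was not tested.

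Between the libraries, Leydig cells were compared over 4779 genes with at least 50 UMIs in both member sums together. At least 2-fold higher in *Brca1* vKO members were 139 genes (2.91%), and at least 2-fold lower were 93 (1.95%). These counts describe 2 libraries of 17 and 53 cells. Over 50% of the UMIs lay in 1 *Brca1* vKO cell for 13 of the 139, and in 1 control cell for 6 of the 93. In stromal-gated cells, those with at least 20 UMIs of *Dcn*, *Col1a1* and *Col1a2* per 10000, 0 of the 4779 genes passed 2-fold higher and 2 (0.0418%) passed 2-fold lower, and both of these were among the 93. Those sums came from 784 control and 1818 *Brca1* vKO cells with 12910301 and 23169882 UMIs, against 316027 and 1142026 UMIs in the members. Counting error and single cells weigh less there, so the counts of genes are not like for like. *Brca1* itself, the deleted gene, had 2 UMIs in control members (6.33 CPM, 0.766 to 22.9) and 25 in *Brca1* vKO members (21.9 CPM, 14.2 to 32.3), of which 44.0% lay in 1 cell. The counts do not separate deleted from intact transcripts and check nothing about the deletion.

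The genes of steroid synthesis moved in both directions. *Cyp17a1* was at 1845 CPM in control and 3960 CPM in *Brca1* vKO members, 2.15-fold higher (1.97 to 2.34). *Star* was at 307 CPM (249 to 374) and 856 CPM (803 to 911), 2.79-fold higher (2.26 to 3.47). *Fdx1*, which the rule did not use, was at 835 CPM (738 to 942) and 2106 CPM (2023 to 2192), 2.52-fold higher (2.22 to 2.87). These 3 genes were ordered the same way in the steroid-high cells outside the rule, where *Star* was at 530 and 1862 CPM, *Fdx1* at 861 and 2673 CPM and *Cyp17a1* at 1599 and 3335 CPM. Those cells came from the same mice and passed the same limit on the steroidogenic sum, which holds *Cyp17a1* and *Star*, so they are not an independent check.

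*Cyp11a1* and *Hsd17b11*, an oxidizing 17-beta-dehydrogenase gene, were the 2 genes of the list past 2-fold lower, by log2 ratios of -1.01 and -1.04. With TMM scaling the ratios were -0.94 and -0.99, which leaves 0 lower genes in the list, and without 1 macrophage-rich *Brca1* vKO member that of *Cyp11a1* was -0.99. *Cyp11a1* was at 2123 CPM (1966 to 2290) in control and 1052 CPM (993 to 1113) in *Brca1* vKO members, a ratio of 0.495 (0.450 to 0.545). In the steroid-high cells outside the rule it was at 2411 and 2740 CPM, in the other order, and with all 118 cells its log2 ratio was -0.42, short of 2-fold. *Hsd17b11* was at 117 and 51.7 CPM in members, with 35.1% of its control UMIs in 1 cell. Outside the rule it too was in the other order, at 88.4 and 97.7 CPM. The other rule genes stayed short of 2-fold, with ratios of 0.652 (0.578 to 0.736) for *Hsd3b1* and 0.997 (0.885 to 1.13) for *Insl3*, and *Lhcgr* had a ratio of 0.746 (0.623 to 0.896). Over the 13 tested genes of the list, 3 were higher and 2 lower (2.91% and 1.95% over all genes), with a median log2 ratio of -0.10 against 0.02 over all genes tested.

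Among the 10 greatest log2 ratios, *Frmd5*, *Nppc*, *Tnfaip6*, *Pde10a*, *Csrp1* and *Top2a* were spread over several cells. *Pde10a*, a phosphodiesterase that breaks down cyclic nucleotides, had 29 UMIs in 5 control cells and 868 UMIs in 46 *Brca1* vKO cells, or 91.8 and 760 CPM, 8.28-fold (5.73 to 12.4). In the cells outside the rule it was at 13.1 CPM in the control and 1213 CPM in *Brca1* vKO cells, and in stromal-gated cells its log2 ratio was -0.04. *Frmd5*, a FERM domain gene, was at 25.3 and 360 CPM, and at 72.0 and 227 CPM outside the rule. Its log2 ratio was -0.56 in stromal-gated and 1.21 in Sertoli-gated cells, and 4 of its 8 control UMIs lay in 1 cell. *Tnfaip6*, a hyaluronan-binding protein gene, was at 15.8 and 199 CPM, and at 9.82 and 29.0 CPM outside the rule. *Nppc*, which encodes C-type natriuretic peptide, was at 15.8 and 207 CPM, but at 94.9 and 17.2 CPM outside the rule, and its log2 ratio was -0.44 where the steroidogenic sum needed to reach only 10. *Csrp1*, a LIM domain gene, had 0 UMIs in control and 67 in *Brca1* vKO members, or 58.7 CPM, and the lower limit of its ratio was 4.89. Of these 67 UMIs, 34.3% lay in 1 cell. Outside the rule *Csrp1* was in the other order, at 21.3 CPM in the control and 13.2 CPM in *Brca1* vKO cells.

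The other 4 of these 10 genes, *Lyz2*, *C1qa*, *Spp1* and *Pf4*, rested on 1 *Brca1* vKO member. That cell had a steroidogenic sum of 46.3 per 10000 and held 245 of the 251 macrophage marker UMIs of the library's members, as well as 99.1% of the *Lyz2*, 98.9% of the *C1qa*, 97.4% of the *Pf4* and 84.8% of the *Spp1* UMIs. Control members held 4 macrophage marker UMIs. Of the UMIs of *Apoe*, which carries lipids and was at 291 and 740 CPM, 55.9% lay in 1 *Brca1* vKO cell. Without the macrophage-rich cell, the log2 ratio of *Apoe* went from 1.32 to 0.20, and 120 genes were higher and 88 lower.

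**Figure D5:**
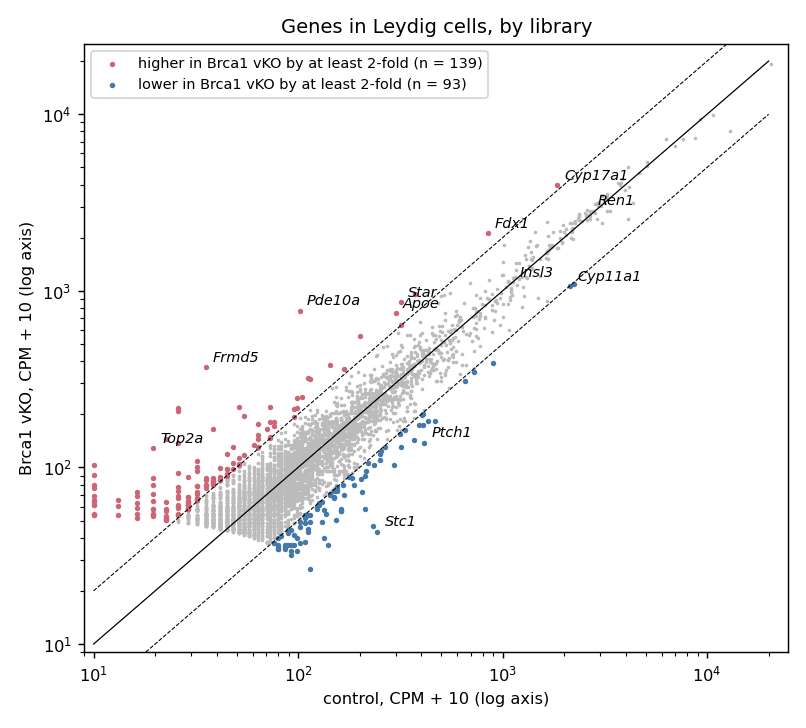
Each point is 1 of 4779 genes in the summed Leydig cells, with CPM + 10 in the control on the x axis and in the *Brca1* vKO library on the y axis, both logarithmic; the solid line is equality and dashed lines are 2-fold. *Cyp17a1*, *Star*, *Fdx1* and *Pde10a* are among the 139 genes above the upper line, *Cyp11a1*, *Stc1* and *Ptch1* among the 93 below the lower one, and *Ren1* and *Insl3* lie near equality.

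Among the lower genes, *Stc1*, which encodes the secreted stanniocalcin 1, was at 234 CPM (184 to 294) in 15 control cells and 33.3 CPM (23.6 to 45.7) in 20 *Brca1* vKO cells, a ratio of 0.142 (0.0935 to 0.213), and at 68.7 and 21.1 CPM outside the rule. *Sntb1*, a syntrophin gene, was at 222 and 36.8 CPM. *Ptch1*, the hedgehog receptor and a target of its own pathway, was at 405 CPM (338 to 482) and 128 CPM (108 to 150), and at 115 and 50.2 CPM outside the rule. Of the 9 tested progenitor and hedgehog genes, *Ptch1* alone was past 2-fold, and *Gli1*, another target, was at 38.0 and 17.5 CPM from 12 and 20 UMIs. *Slc2a13*, a myo-inositol transporter gene, had 97.0% of its control UMIs in 1 cell. *Hba-a1* was at 88.6 and 23.6 CPM, and red blood cell RNA moved the same way elsewhere, with a log2 ratio of -3.31 for *Hba-a1* in stromal-gated cells. *E330017L17Rik*, *Dync1i1*, *Slc12a8*, *Ripor2* and *Plcb1* were the others among the 10 lowest, with log2 ratios from -1.95 to -1.53.

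The other lists are read against the 2.91% of all genes that were higher and 1.95% that were lower between the libraries. Of 10 tested secreted factor genes, *Igf1*, *Inha*, *Cxcl12* and *Apoe* were higher, with a median of 0.45, and 3 of them without the macrophage-rich cell, where *Apoe* fell short. *Igf1r*, the IGF1 receptor, was higher at 307 and 635 CPM and *Ghr*, the growth hormone receptor, lower at 152 and 48.2 CPM among 10 tested receptor genes. *Prkar2b*, a regulatory subunit of protein kinase A, was higher at 88.6 and 207 CPM among 11 tested signalling genes, *Zfpm2* among 14 transcription factor genes, *Dlk1* and *Rian* among 10 imprinted genes, and *Atf3* among 10 immediate early genes, though not without the macrophage-rich cell. None of 18 cholesterol supply genes (1 lower without that cell) and none of 17 antioxidant and detoxification genes passed 2-fold, with medians of -0.20 and -0.12. Of the 8 genes shared by both Leydig types, *Star* and *Cyp17a1* were higher and *Cyp11a1* lower, all 3 of them genes of the rule.

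Of the 7 tested stromal markers, 3 were higher in *Brca1* vKO members, namely *Dlk1*, *Igf1* and *Col1a1*, and 0 lower (2.91% and 1.95% over all genes). The whole list of 8 summed to 1282 CPM in control and 1776 CPM in *Brca1* vKO members, with a median per cell of 8.19 per 10000 UMIs, from 3.08 to 31.4, in the control and 13.1, from 0.639 to 79.3, in the *Brca1* vKO library. Its part in the differences between the libraries was not tested. The endothelial, pericyte, myoid, neutrophil and germ lists summed to at most 77.9 CPM in members of either library, and the adrenal cortex list to 6.33 and 12.3 CPM. In the steroid-high cells outside the rule the adrenal cortex list summed to 47.5 CPM in the control and 30.4 CPM in *Brca1* vKO cells.

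Dividing cells were present among the members. Of 8 tested cell cycle genes, 6 were higher in *Brca1* vKO members and 0 lower (2.91% and 1.95% over all genes). The median log2 ratio was 1.51, and the list summed to 269 and 771 CPM. A cell cycle sum of at least 10 per 10000 UMIs, a limit set after the values were seen, was reached by 1 of 17 control members (5.88%, 0.149 to 28.7) and 7 of 53 *Brca1* vKO members (13.2%, 5.48 to 25.3). These intervals overlapped, and with 1 library per genotype a difference in share between genotypes was not tested. The control cell had no UMI of the proliferation genes *Mki67* and *Top2a*. *Top2a* was at 713 CPM in the 7 *Brca1* vKO members and 22.4 CPM in the other 46, and *Mki67* at 297 and 4.07 CPM. In the 16 control members under the limit, *Top2a* was at 9.72 CPM and *Mki67* at 0. Both genes are in the list that set the limit, so these levels describe the split. In stromal-gated cells the shares were 12.8% and 8.97%, in the other order.

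The levels of the 7 *Brca1* vKO members that reached the limit are given beside those of the other 46 as a description, since all were selected on the steroidogenic sum and those 7 had sums from 22.4 to 116. *Star* was at 315 CPM (234 to 416) against 943 CPM (883 to 1005), *Cyp11a1* at 410 (316 to 523) against 1155 (1089 to 1224), *Cyp17a1* at 2334 (2102 to 2584) against 4222 (4094 to 4352) and *Ren1* at 1224 (1058 to 1409) against 3097 (2988 to 3209). *Insl3* was closer, at 795 (662 to 946) against 1158 (1092 to 1227), and *Lhcgr* was at 309 (229 to 409) against 408 (369 to 450). The median steroidogenic sum was 25.3 per 10000 in the 7 cells, close to the rule's limit of 20, and 62.0 in the 46. Both sets come from 1 mouse, and 6 *Brca1* vKO members lay within a factor of 2 of the limit. Without the members that reached it, 108 genes were higher and 79 lower between the libraries, and the log2 ratios of *Star* and *Cyp17a1* were 1.58 and 1.18.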

How the data were processed

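Single cells of PD7 testes were profiled on the 10x Chromium platform. The authors counted UMIs per gene and cell against mm10 with Cell Ranger 6.0.2, and the deposited values are these counts, not normalized, for 5812 control and 9456 *Brca1* vKO barcodes. Retained cells had a minimum of 750 detected genes and no more than 10% of UMIs from mitochondrial genes. The members and gene lists were chosen with earlier results of these data known, and no cell annotation by the authors was used.

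UMIs were summed over members and given as CPM. Log2 ratios used a pseudocount of 10 CPM and genes with at least 50 UMIs. Stromal-gated cells had a steroidogenic sum below 20, a Sertoli sum below 10, a germ sum below 2, at least 20 UMIs of *Dcn*, *Col1a1* and *Col1a2* per 10000 and less than 20 of *Acta2* and *Myh11*, and Sertoli-gated cells had a Sertoli sum of at least 10 in place of the stromal limits. Shares were given with Clopper-Pearson, sums with Poisson and ratios with conditional intervals (scipy 1.17.1). Named genes were the rule's genes, *Lhcgr*, *Brca1*, the fetal-type and adult-type lists, the 20 greatest differences from other cells, the 10 highest and 10 lowest ratios between libraries, and the best counted or called genes of the other lists. One of these genes is not reported here. Scrublet in scanpy 1.11.5 marked 2.96% and 3.03% of cells as doublets, which were kept. Positions are from GENCODE M21 (GRCm38). Alternatives changed the filters, the limits of the rule, the depth, the scaling (TMM in edgeR 4.0.16), the pseudocount and the minimum of UMIs.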

Additional observations from a re-analysis of the deposited data

How the results depend on the processing

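The ratio of the Leydig cell shares stayed above 1 under every alternative run, from 1.18 to 2.01, but its interval reached below 1 when the Sertoli and germ limits were dropped, when *Clu* was left out of the Sertoli sum (chosen after seeing the data) and when the steroidogenic sum had to reach 50. The count of 93 genes higher in members than in other cells became 214 with a pseudocount of 1 CPM and 35 with 50 CPM, and lay between 71 and 105 otherwise. The 232 genes past 2-fold between the libraries became 389 when each cell counted equally (180 higher and 209 lower, against 139 and 93). Of the 139 and 93, 115 and 56 were kept there. With cells thinned to 5000 UMIs the count was 67, and only 14 of the 139 and 7 of the 93 were among them. It was 357 and 57 with pseudocounts of 1 and 50 CPM, and 701 and 46 with minimums of 10 and 200 UMIs. TMM scaling gave 156 higher and 69 lower, and dropping the Sertoli and germ limits 130 and 43, of which 57 and 15 were among the 139 and 93. The fetal-type over adult-type ratio of the *Brca1* vKO members moved from 4.29 to 4.72 with a mitochondrial limit of 5%, 6.29 and 3.51 with steroidogenic sums of 50 and 10, 3.16 without the Sertoli and germ limits and 3.25 without *Clu*, and that of the control members from 2.27 to 2.63 without *Clu*. It stayed higher in the *Brca1* vKO than in the control members in each of these. Of 484 single-gene values under alternatives, 391 stayed within their counting interval (or, for *Scarb1* without 1 control cell, past 4-fold) and 92 moved beyond it. The 1 value that reversed was that of *Nppc*, at -0.44 with a steroidogenic sum of 10. A reversal was counted only for genes past 2-fold in the main comparison. Changes of sign in other genes fall among the 391 and the 92 and were not counted apart. Where values moved, the cause was not tested. No paired analysis was possible because each genotype had 1 library. Depth limits genes with few UMIs in the 17 control cells, where 3 counts correspond to 9.49 CPM.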
